A study of Mus musculus with 4 samples.

Results

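Undifferentiated WT ES and DKO ES cells without Dex gave the background against which Gata4 peaks of mesoderm cells were found, and the height of that background was compared here between the 2 genotypes at 7025 pairs of peaks. A pair is a WT peak and a DKO peak on the same chromosome that lie within 100 bp of each other and are each the nearest to the other. The pairs hold 34.4% of the 20410 WT peaks and 30.9% of the 22733 DKO peaks. DKO is *Dnmt3a-/-Dnmt3b-/-*, and the parental line of both genotypes is J1, from a 129 background. Both ES lines stably expressed Gata4GR, a fusion of Gata4 and the part of the human glucocorticoid receptor that binds ligand, from the CAG promoter, and both were precipitated with 3 mixed anti-Gata4 antibodies. The peaks themselves came from Flk1(+) mesoderm cells at day 4.5 of differentiation on OP9 stroma, which had received 100 nM Dex for 3 hr and were sorted with magnetic beads. The labels name clone J1G4.2 for the WT and 16G4.3 for the DKO Flk1(+) cells and name no clone for the ES cells, while the study's methods give the WT clone as J1G4.211, so each genotype is at most 1 clone of each kind and genotype cannot be told apart from clone.

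Each of the 4 conditions is 1 library. No test between the genotypes was therefore possible, and no SD between libraries exists. Medians over pairs are given with the exact binomial interval of the median (95%) and shares with the exact Clopper-Pearson interval (95%). These intervals cover the counting of pairs within these libraries, and pairs are not replicates. The pairs were selected by the peak positions, and a position entered a list only where its Flk1(+) height was at least 5 and at least 3 times the ES height, so the ES heights themselves took part in choosing the pairs and are described here without a test. The depth of the ES libraries is unknown.

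Gata4 is a zinc-finger transcription factor that binds the sequence A/T-GATA-A and drives endoderm, heart and other lineages. The glucocorticoid receptor domain holds such a fusion in the cytoplasm until Dex is added, so cells without Dex serve as a control. *Dnmt3a* and *Dnmt3b* encode the enzymes that place methyl groups on CpG dinucleotides which had none. Most CpGs of the mammalian genome carry the mark, whereas the CpG-dense islands at many promoters are largely free of it.

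The ES height, as deposited, had a median of 2.20 over the pairs in WT ES, with quartiles of 1.57 and 3.16 and a range of 0.00453 to 24.0. In DKO ES the median was 1.47, with quartiles of 0.938 and 2.15 and a range of 0 to 18.8. Each height was divided by its own median over the pairs to give a scaled height, and the shift of a pair is the log2 of the scaled DKO height over the scaled WT height after 0.25 was added to both. Scaled in this way the median shift of all pairs was -0.0097 (interval -0.030 to 0.0048), which the scaling fixes near 0, and the quartiles were -0.45 and 0.39. The shift ran from -3.02 to 2.18, with an SD over pairs of 0.64. It was within 1.5-fold in 4594 pairs (65.4%), 2-fold or more towards DKO in 278 (3.96%) and 2-fold or more towards WT in 568 (8.09%). These 2 percentages are the background for every count of 2-fold pairs that follows. The ES height was under 1 at 542 pairs (7.72%) in WT and at 1974 (28.1%) in DKO, and at 363 pairs in both.

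The sequences around the WT position of 10 pairs are shown as examples. They were taken from the 3503 pairs that had a scaled height of at least 1 in either library and a gene named by the lists within 5 kb, and are the 5 of these with the largest shift in each direction that lay outside annotated UTRs, each 101 bp on the plus strand of mm9 as deposited. Capitals mark the GATA motif, AGATAA or TGATAA, or their reverse complements TTATCT or TTATCA. The first 5 were higher in WT ES and the other 5 were higher in DKO ES.
Zfpm1, chr8:124850116-124850216: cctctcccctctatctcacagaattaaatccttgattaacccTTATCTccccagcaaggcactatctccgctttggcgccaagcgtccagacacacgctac
Pax7, chr4:139371747-139371847: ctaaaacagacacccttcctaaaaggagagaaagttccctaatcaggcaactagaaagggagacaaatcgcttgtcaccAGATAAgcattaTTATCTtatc
Snrnp48, chr13:38294343-38294443: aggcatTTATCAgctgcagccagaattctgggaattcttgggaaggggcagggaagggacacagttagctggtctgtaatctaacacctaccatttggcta
Aldh4a1, chr4:139185171-139185271: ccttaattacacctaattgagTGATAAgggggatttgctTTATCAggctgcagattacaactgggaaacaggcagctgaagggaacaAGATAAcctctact
Vwa5b1, chr4:138170430-138170530: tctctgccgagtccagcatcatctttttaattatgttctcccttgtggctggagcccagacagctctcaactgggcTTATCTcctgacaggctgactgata
4932441J04Rik, chr5:58106662-58106762: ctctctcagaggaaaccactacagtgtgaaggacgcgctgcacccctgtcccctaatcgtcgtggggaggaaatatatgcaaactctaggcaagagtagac
Smtnl2, chr11:72228810-72228910: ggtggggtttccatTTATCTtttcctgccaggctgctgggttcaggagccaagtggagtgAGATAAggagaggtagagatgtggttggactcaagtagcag
Foxc1, chr13:31899414-31899514: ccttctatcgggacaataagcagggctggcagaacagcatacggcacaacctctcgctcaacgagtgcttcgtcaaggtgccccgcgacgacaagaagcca
Eng, chr2:32499804-32499904: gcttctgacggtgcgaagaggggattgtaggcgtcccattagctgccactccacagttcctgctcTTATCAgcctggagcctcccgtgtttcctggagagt
Srrm4, chr5:116935121-116935221: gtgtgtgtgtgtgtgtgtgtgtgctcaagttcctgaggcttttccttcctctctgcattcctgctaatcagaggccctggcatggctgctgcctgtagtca

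All 5 stretches from pairs higher in WT ES held the motif, with 1 copy at *Zfpm1*, *Snrnp48* and *Vwa5b1*, 2 at *Pax7* and 3 at *Aldh4a1*. Of the 5 from pairs higher in DKO ES, the stretch at *Smtnl2* held 2 copies and that at *Eng* held 1. In the longer central 201 bp *Smtnl2* held 3 copies, *Eng* 1 and *Srrm4* 1. The *Foxc1* stretch, in a coding exon of this forkhead transcription factor gene, held 8 CpGs and no motif. In the central 201 bp of the deposited window, 12 of the 12 named pairs higher in WT ES held a motif, as did 6 of the 12 named pairs higher in DKO ES. Among all 7025 pairs 51.8% of WT windows of this length held it. Of the 568 pairs 2-fold higher in WT ES 85.7% held it, and of the 278 pairs 2-fold higher in DKO ES 37.4%. The same stretch held it in 52.6% of all 20410 WT peaks and in 28.9% of all 22733 DKO peaks. A match is a description of the letters and not evidence of binding.

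Among these 3503 pairs the largest shift towards WT ES was at *Zfpm1*, which encodes the GATA cofactor FOG1, while the lowest shift of all pairs, -3.02, lay at a pair without a named gene. In its intron at position 124850166 of chromosome 8 the ES height was 9.40 in WT and 0.995 in DKO, a shift of -2.28. The Flk1(+) height of the same pair was 55.0 in WT and 19.5 in DKO. The intron of *Pax7*, a transcription factor gene of muscle and neural crest precursors, had an ES height of 8.82 in WT and 0.968 in DKO, a shift of -2.22. Near *Snrnp48*, which encodes a protein of the minor spliceosome, and *Dsp*, which encodes the desmosome protein desmoplakin, the ES height was 6.29 in WT and 0.610 in DKO, a shift of -2.22. The intron of *Aldh4a1*, which encodes a mitochondrial enzyme of proline breakdown, had 14.2 in WT and 1.85 in DKO, a shift of -2.15. These WT heights lay above the upper quartile of WT ES, whereas 3 of the 4 DKO heights were below 1. The same held at introns of *Vwa5b1* (5.76 in WT ES and 0.630 in DKO ES) and of the cadherin gene *Cdh8* (6.95 and 0.857). The other 6 pairs had lower WT heights, from 4.02 at *Col4a1*, which encodes a collagen of basement membranes, to 2.58 at *Pramef12*, and DKO heights of 0.183 to 0.401. They were at *Pcyt1b* (-2.00), an enzyme of phosphatidylcholine synthesis, *Chchd6* (-1.99), a protein of mitochondrial cristae, *Col4a1* (-1.99), the uridine-cytidine kinase gene *Uck2* (-1.94), *Tbc1d5* (-1.93), a regulator of Rab GTPases, and *Pramef12* (-1.92). The next pair by the rule, just outside the 12, was near *Crot* at -1.86.

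Of these 12 pairs, 11 lay in introns, 1 within 1 kb of a transcription start and 8 in windows with under 10 CpGs, and none had 20 or more CpGs. Chromosome 4 held 4 of them, chromosome 8 held 3 and chromosome 11 held none. The 4 on chromosome 4, at *Vwa5b1*, *Aldh4a1*, *Pax7* and *Pramef12*, lay between positions 138170480 and 143992799. The 10-Mb stretches that hold them, from 130 and from 140 Mb, had median shifts of 0.03 over 56 pairs and 0.06 over 26 pairs. The 3 on chromosome 8, at *Zfpm1*, *Cdh8* and *Col4a1*, lay in stretches with negative medians. These were -0.53 over 93 pairs from 120 Mb, -0.54 over 23 pairs from 100 Mb and -0.42 over 32 pairs from 10 Mb. The Flk1(+) height, scaled in the same way, was also lower in DKO at 11 of the 12 pairs. At *Col4a1* it was 12.5 in WT and 12.4 in DKO, a log2 ratio of 0.46 after scaling.

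**Figure D1:**
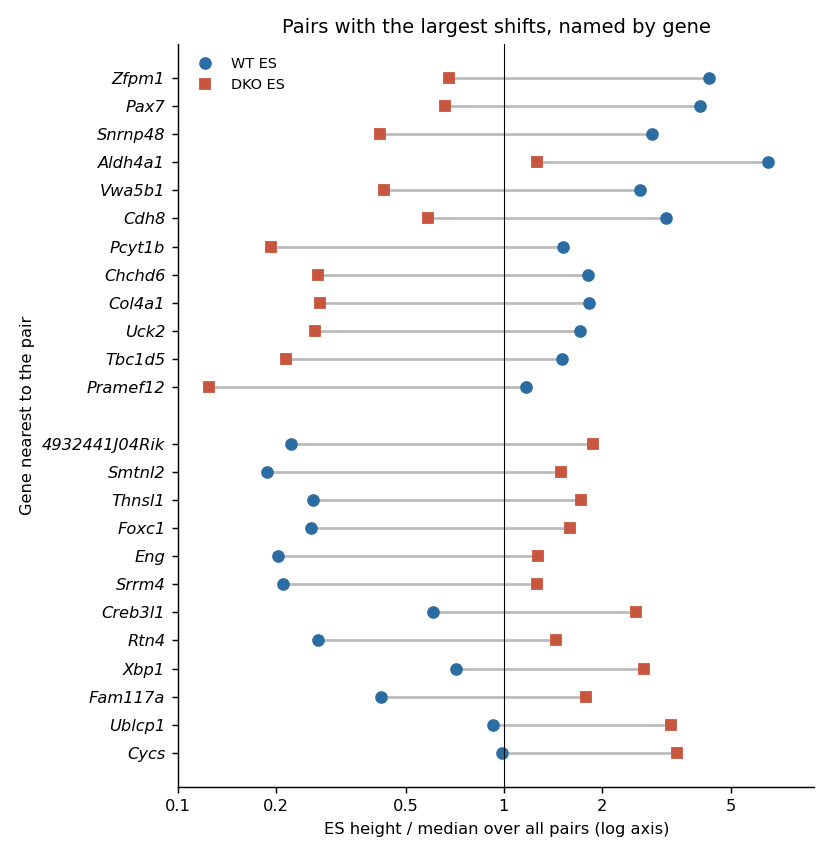
Scaled ES height (log axis, 1 is the median over the 7025 pairs) of the 12 pairs with the largest shift towards WT ES (upper group) and the 12 towards DKO ES (lower group), 1 a gene, among the 3503 pairs with a named gene and a scaled height of at least 1 in either library, with blue circles for WT ES and red squares for DKO ES, 1 library each. In the upper group the WT heights run from 1.17 to 6.46 and the DKO heights from 0.125 to 1.26, and in the lower group the DKO heights run from 1.27 to 3.42 and the WT heights from 0.188 to 0.988.

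The largest shift towards DKO ES was in an intron of *4932441J04Rik*, close to the protocadherin gene *Pcdh7*, where the ES height was 0.488 in WT and 2.76 in DKO, a shift of 2.18. Near *Smtnl2*, a smoothelin-like gene, it was 0.414 in WT and 2.20 in DKO (2.00). At the UTR of *Thnsl1* it was 0.573 in WT and 2.53 in DKO (1.95). In the *Foxc1* exon it was 0.563 and 2.35 (1.87). The fifth pair lay in an intron of *Ak1*, 2251 bp from the start of *Eng*, which encodes the endothelial TGF-beta coreceptor endoglin, with 0.447 in WT and 1.87 in DKO (1.76). In 8 of the 12 pairs the WT height was under 1, and the DKO heights of the 12 ran from 1.86 to 5.01. The remaining pairs were at *Srrm4* (1.72), a regulator of neural splicing, *Creb3l1* (1.71), a transcription factor held at the endoplasmic reticulum, the reticulon gene *Rtn4* (1.71), *Xbp1* (1.61), a transcription factor of the unfolded protein response, *Fam117a* (1.61), *Ublcp1* (1.58), a phosphatase of the proteasome, and *Cycs* (1.57), which encodes cytochrome c. The next pair, just outside the 12, was at *Tmem93* with 1.56.

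Of the 12 pairs towards DKO, 6 lay within 1 kb of a transcription start, 7 had 20 or more CpGs in the window, 5 lay on chromosome 11 and none on chromosome 8. Of all pairs, 36.3% lay within 1 kb of a start, 38.6% had 20 or more CpGs, 47.8% had under 10, and 5.91%, 7.07% and 11.2% lay on chromosomes 4, 8 and 11. Both sets of 12 were drawn from pairs with a named gene only. Such pairs number 4861 and hold all 2553 pairs within 1 kb of a start, which are thus commoner among them than 36.3%. Shares within the pairs open to the choice were not taken. At *Xbp1* the ES height was 1.58 in WT and 3.96 in DKO, and the Flk1(+) height was 5.17 and 14.3, so that both libraries of each genotype moved together. At *Smtnl2* they did not, since the Flk1(+) height was 16.6 in WT and 6.77 in DKO. The scaled Flk1(+) height was higher in DKO at 9 of the 12 and lower at *Smtnl2*, *Srrm4* and *Ublcp1*.

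The named pairs that were highest in both ES libraries lay mostly at promoters. They were taken among pairs with a named gene, 1 pair a gene. Pairs without a named gene, none of which is a promoter pair, were left out. The 6 with the largest value of the lower scaled height were at *Spty2d1*, a histone chaperone gene, *Ttc32*, *Cdca8* and *Birc5*, which encode the borealin and survivin subunits of the chromosomal passenger complex, *Hmgb2*, a chromatin protein gene, and *Cd59a*, which encodes an inhibitor of complement. At *Spty2d1* the ES height was 17.1 in WT and 18.8 in DKO, the highest DKO value of all pairs, and at *Cdca8* it was 15.4 and 12.6. Of the 6, 5 lay within 1 kb of a transcription start and had 20 or more CpGs, and 2 held a motif. *Cd59a* was the exception, with 5 CpGs, 4 motifs, an ES height of 20.4 in WT and 9.47 in DKO, and a shift of -0.51. The shifts of the other 5 ran from -0.08 at *Ttc32* to 0.71 at *Spty2d1*.

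Pairs with more copies of the GATA motif had higher ES signal in WT relative to DKO. The 3384 pairs without a motif in the central 201 bp of the WT window had a median shift of 0.20 (interval 0.17 to 0.22), the 2032 with 1 copy had -0.16 (-0.19 to -0.13), the 1176 with 2 copies had -0.29 (-0.34 to -0.24), and the 433 with 3 or more had -0.55 (-0.63 to -0.47). With 3 or more copies, 21.7% of pairs were higher in DKO, 5 pairs were 2-fold higher in DKO and 107 were 2-fold higher in WT. The median WT ES height was 2.33 without a motif and 2.50 with 3 or more copies, whereas the median DKO ES height was 1.83 and 1.11.

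Windows with motifs were poor in CpGs, with a median of 5 CpGs at 3 or more copies against 34 without a motif, so the order was also read within classes of CpG count. In windows with 0 to 4 CpGs the median shift was -0.18, -0.24, -0.35 and -0.63 for 0, 1, 2 and 3 or more copies. In windows with 5 to 9 CpGs it was -0.02, -0.17, -0.28 and -0.59. In windows with 10 to 19 CpGs it was 0.08, -0.12, -0.20 and -0.23, the last over 62 pairs with an interval of -0.50 to -0.03. The intervals of neighbouring motif counts overlapped in part of these steps, for example between 1 and 2 copies at 0 to 4 CpGs (-0.32 to -0.17 and -0.40 to -0.27). Among the 4472 pairs away from transcription starts the median shift was 0.02, -0.18, -0.29 and -0.54. The scaled Flk1(+) height moved the same way, with a median log2 ratio of 0.33 without a motif and -0.47 with 3 or more copies.

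**Figure D2:**
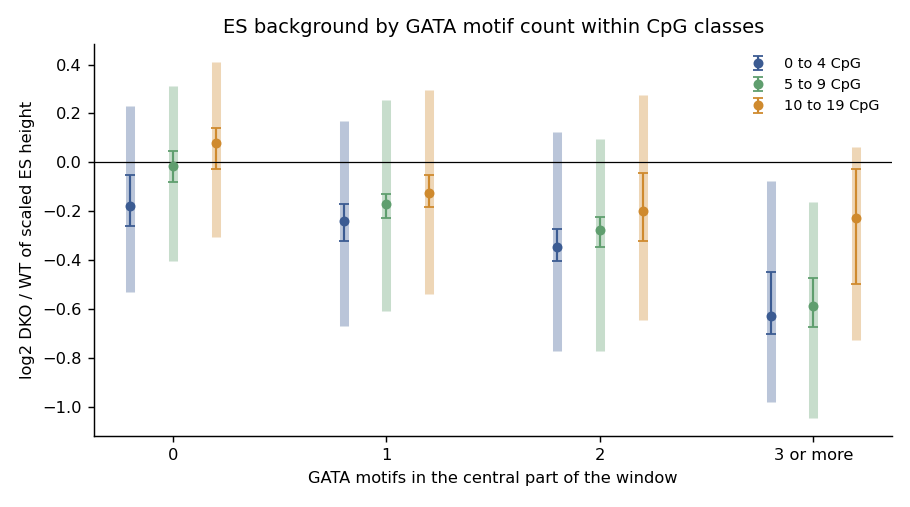
Median shift (log2 of the scaled DKO over the scaled WT ES height) against the number of GATA motifs in the central 201 bp, for windows with 0 to 4, 5 to 9 and 10 to 19 CpGs, where points are medians over pairs, thin bars the exact binomial intervals of the median (95%) and wide bars the quartiles. The medians fall from -0.18 to -0.63 at 0 to 4 CpGs, from -0.02 to -0.59 at 5 to 9 CpGs and from 0.08 to -0.23 at 10 to 19 CpGs.

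CpG-rich pairs had relatively more ES signal in DKO. The median shift rose from -0.30 (interval -0.35 to -0.26) over the 1445 pairs with 0 to 4 CpGs in the 501-bp window to -0.20 at 5 to 9 CpGs, -0.08 at 10 to 19, 0.19 at 20 to 29, 0.26 at 30 to 39 and 0.29 (0.26 to 0.31) over the 1304 pairs with 40 or more. The share of pairs higher in DKO went from 31.9% to 70.2% between the end classes. At 0 to 4 CpGs 38 pairs were 2-fold higher in DKO and 208 in WT, and at 40 or more the counts were 76 and 16. As deposited, the median WT ES height rose from 1.84 to 2.64 between the end classes and the median DKO ES height from 0.974 to 2.20. The WT height therefore changed less with CpG count than the DKO height.

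Promoter pairs, those within 1 kb of a transcription start, numbered 2553 and had a median shift of 0.26 (0.23 to 0.28), with 68.3% higher in DKO. The 4472 other pairs had -0.19 (-0.21 to -0.17), with 38.2% higher in DKO. Among promoter pairs 138 were 2-fold higher in DKO and 44 in WT, and among the other pairs 140 and 524. The classes differed little from 20 CpGs upwards. At 40 or more CpGs the median was 0.29 for 1208 promoter pairs and 0.27 for 96 other pairs, at 30 to 39 CpGs 0.27 and 0.18, and at 20 to 29 CpGs 0.21 and 0.12, with overlapping intervals in each class. At 5 to 9 CpGs 47 promoter pairs had 0.16 (-0.12 to 0.37) and 1869 other pairs -0.21 (-0.24 to -0.18), at 10 to 19 CpGs the medians were 0.06 and -0.11, and at 0 to 4 CpGs there were 14 promoter pairs, with -0.70. With each pair taken relative to its CpG class, the promoter pairs stood 0.013 above the median of all pairs (interval -0.0055 to 0.036).

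**Figure D3:**
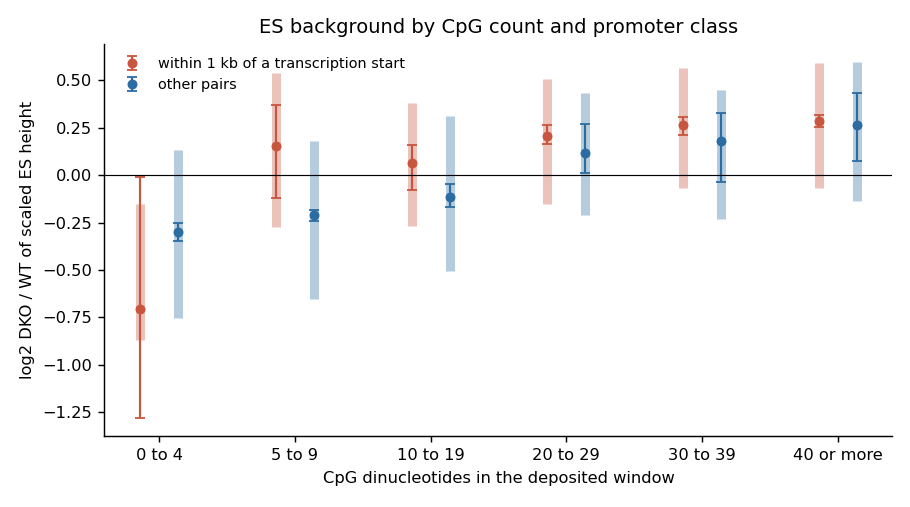
Median shift by the number of CpGs in the 501-bp window, for pairs within 1 kb of a transcription start (red) and other pairs (blue), where thin bars are exact binomial intervals of the median (95%) and wide bars quartiles. From 20 CpGs upwards the medians of both classes lie between 0.12 and 0.29, and below 10 CpGs the other pairs lie at -0.30 and -0.21.

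The positive shift of promoter and CpG-rich classes was seen in the pairs and not in the lists as wholes. Over all peaks, paired or not, promoter peaks had a median ES height of 2.17 for WT and 1.86 for DKO, and other peaks 1.55 and 1.34. Relative to the median of each list the promoter peaks were then lower in DKO, with a log2 ratio of -0.12 against the shift of 0.27 relative to all pairs. Other peaks had -0.098, so both classes lay below 0, in lists with 26.2% promoter peaks for WT and 47.5% for DKO. In the same comparison peaks with 40 or more CpGs gave -0.08 and those with 0 to 4 gave -0.16. These end classes kept the order they had in the pairs but lay closer together. Paired promoter peaks were higher than unpaired ones in both lists, with medians of 2.54 and 1.87 for WT and of 2.07 and 1.82 for DKO. Away from promoters the lists went opposite ways. There the median ES height was 2.00 for paired and 1.42 for unpaired WT peaks, but 1.17 for paired and 1.43 for unpaired DKO peaks. Windows with 3 or more motifs kept the direction, with -0.31.

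Chromosomes 8 and 11 stood apart from the other 18 that held pairs. On chromosome 8 the 497 pairs had a median ES height of 2.78 in WT and 1.45 in DKO, a median shift of -0.30 (interval -0.37 to -0.19), and 31.4% of pairs were higher in DKO. On chromosome 11 the 789 pairs had 2.29 and 1.92, a median shift of 0.30 (0.26 to 0.33), and 68.8% were higher in DKO. The medians of the other 18 chromosomes ran from -0.11 to 0.04. Chromosome 8 held 10 pairs 2-fold higher in DKO and 79 in WT (15.9% of its pairs), and chromosome 11 held 70 (8.87%) and 20.

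Taken relative to the CpG class of each pair, the median was -0.22 (-0.29 to -0.16) on chromosome 8 and 0.25 (0.20 to 0.30) on chromosome 11. The shift on chromosome 8 was seen at promoter pairs, with a median of -0.03 over 124 pairs against 0.26 for all promoter pairs, and at other pairs, with -0.38 over 373 against -0.19. On chromosome 11 promoter pairs had 0.44 over 324 pairs and other pairs 0.14 over 465. In 10-Mb stretches with at least 10 pairs, 13 of 13 on chromosome 11 had a positive median relative to CpG class, from 0.05 to 0.45. On chromosome 8, 10 of 13 were negative, from -0.73 to 0.07 with the lowest from 100 to 110 Mb, and among the other chromosomes 114 of 199 were negative. Chromosome 18 had 6 of 7 negative, chromosome 9 had 9 of 12 and chromosome 7 had 10 of 14. The count of negative stretches alone thus did not set chromosome 8 apart. The 9 stretches of chromosome 17 were also all negative, and its median relative to CpG class was -0.11 (-0.21 to -0.02).

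The levels within each library were also taken. Relative to pairs of the same CpG class in the same library, the log2 ES height on chromosome 8 stood at 0.37 in WT and 0.13 in DKO, and that on chromosome 11 at 0.05 in WT and 0.32 in DKO. Over all peaks, paired or not, the levels were 0.25 and 0.12 on chromosome 8 and 0.03 and 0.21 on chromosome 11. Among the pairs the X chromosome was low in both genotypes alike, with -0.44 in WT and -0.45 in DKO. Over all peaks it was lower in WT, with -0.51 against -0.36 in DKO. The Flk1(+) heights of the pairs moved in the same directions by less, with median log2 ratios relative to CpG class of -0.12 on chromosome 8 and 0.10 on chromosome 11. The number of peaks went the other way on chromosome 8, with 1365 for WT and 2108 for DKO, a DKO to WT ratio of 1.54. On chromosome 11 it was 2329 and 2316, a ratio of 0.99. The ratios of the other 18 chromosomes ran from 0.73 to 1.35, and the whole lists hold 20410 WT and 22733 DKO peaks.

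**Figure D4:**
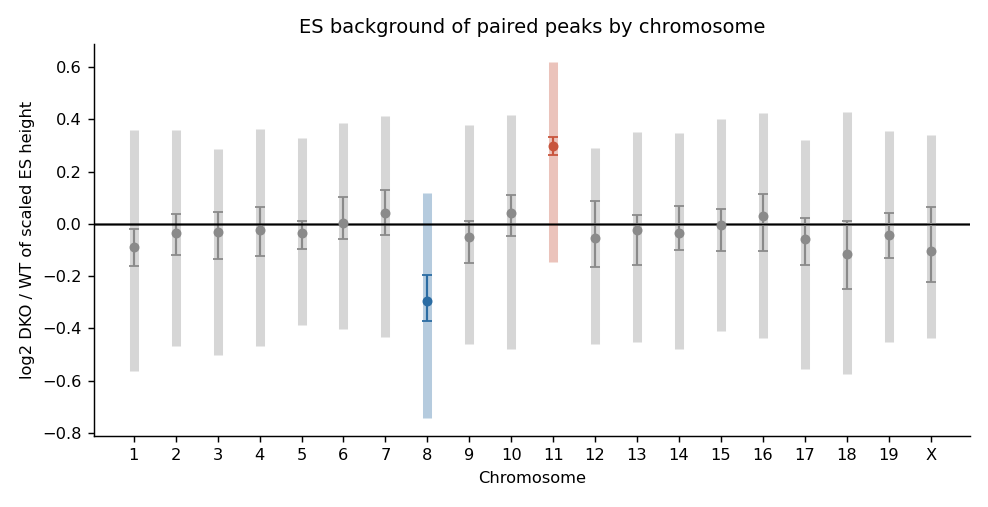
Median shift (log2 of the scaled DKO over the scaled WT ES height) of the pairs on each chromosome, where thin bars are exact binomial intervals of the median (95%) and wide bars quartiles. Chromosome 8 (blue) lies at -0.30 and chromosome 11 (red) at 0.30, and the other 18 lie between -0.11 and 0.04.

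Chromosome 11 also held strong pairs that went against its median. By WT ES height its leading named genes were *Rnasek*, *Birc5*, *Lcp2*, *Slc6a4*, *Ntn1* and *Top2a*. The shift divides by the WT height, so a choice by high WT height favours negative shifts. No such choice was made by DKO height. At the intron of *Lcp2*, which encodes an adapter protein of T-cell and platelet signalling, the ES height was 12.4 in WT and 2.15 in DKO (-1.77), and at the intron of the serotonin transporter gene *Slc6a4* 11.5 and 3.14 (-1.20). Near *Rnasek* it was 14.9 and 5.76 (-0.75) and in an intron of the axon guidance gene *Ntn1* 10.5 and 4.29 (-0.66). These 4 pairs held 2 or 3 motifs each. The pairs near the mitotic genes *Birc5* (12.8 and 10.2) and *Top2a* (9.89 and 9.56) had 41 and 29 CpGs, at most 1 motif, and shifts of 0.25 and 0.52.

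At CpG-poor pairs the median ES height rose more over classes of Flk1(+) height in WT than in DKO. The 3361 pairs with under 10 CpGs were put into 5 equal classes by their WT Flk1(+) height. From the lowest class (5.01 to 7.81) to the highest (21.0 to 142) the median ES height rose from 1.44 to 3.07 in WT and from 0.955 to 1.31 in DKO, and the median shift fell from 0.03 to -0.52. Classed by the DKO Flk1(+) height, the median ES height rose from 1.56 to 3.06 in WT and from 0.899 to 1.52 in DKO, and the shift fell from -0.16 to -0.38. Both ES libraries rose in both classings, and WT ES rose more in each. At the 2715 pairs with 20 or more CpGs the median ES height went from 1.68 to 4.71 in WT and from 1.58 to 3.46 in DKO over the classes of WT Flk1(+) height. The median shift there went from 0.39 to 0.13. Over the classes of DKO Flk1(+) height the medians went from 1.81 to 4.47 in WT and from 1.43 to 3.68 in DKO, and the shift from 0.16 to 0.27.

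Over all 7025 pairs the Spearman correlation of WT ES with WT Flk1(+) heights was 0.53, with DKO Flk1(+) heights 0.53 and with DKO ES heights 0.54. That of DKO ES heights was 0.51 with DKO Flk1(+) and 0.19 with WT Flk1(+) heights. Between ES and Flk1(+) heights of the same genotype it was 0.46 in WT and 0.30 in DKO at under 10 CpGs. With 20 or more CpGs it was 0.83 in WT and 0.73 in DKO, so WT was higher in both classes. These are descriptions over positions that share libraries, and the lists admit a peak only at 3 times or more the ES height of the same genotype, which ties the heights. The shift of the ES heights and that of the Flk1(+) heights had a Spearman correlation of 0.41.

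**Figure D5:**
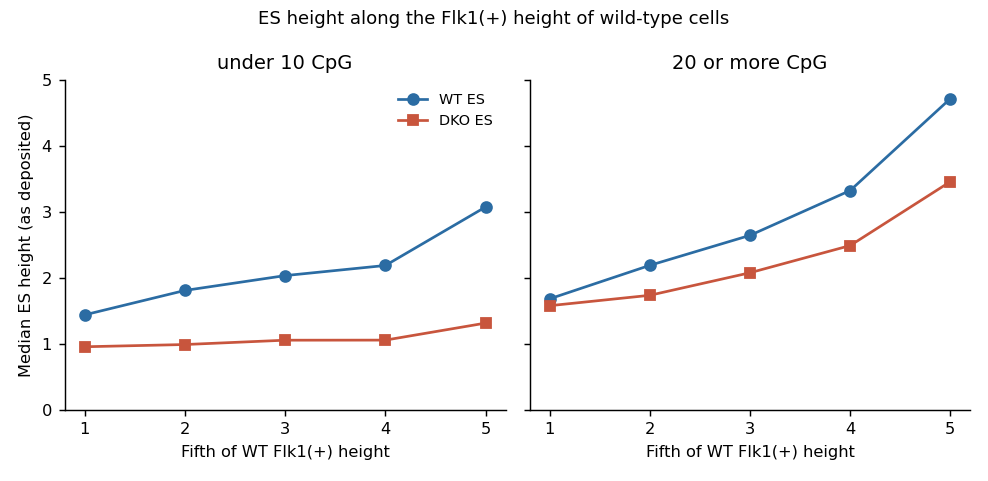
Median ES height as deposited, in WT ES (blue circles) and DKO ES (red squares), over 5 equal classes of the WT Flk1(+) height, for pairs with under 10 CpGs (left) and with 20 or more (right). On the left WT ES goes from 1.44 to 3.07 and DKO ES from 0.955 to 1.31, and on the right WT ES goes from 1.68 to 4.71 and DKO ES from 1.58 to 3.46.

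Of all pairs 49.1% were higher in DKO ES, and the counts of the gene groups stand beside this level. The groups differed in promoters, CpGs and motifs, with which the share moved, and were not matched for them. The genes of GATA factors and their cofactors had the lowest median over pairs of the groups, which rested on *Zfpm1*. Of 12 listed, 5 had a pair, and their 18 pairs had a median shift of -0.47 against -0.0097 for all pairs, with 2 pairs (11.1%) higher in DKO and 6 pairs 2-fold higher in WT. Of these 18 pairs 77.8% held a motif and 16.7% were promoter pairs. Over all genes, pairs away from promoters were higher in DKO in 51.6%, 37.6%, 32.2% and 21.7% with 0, 1, 2 and 3 or more motifs. The medians with 1 and 2 motifs were -0.18 and -0.29. *Zfpm1* alone gave 9 of the 18, all on chromosome 8 and all higher in WT ES, from -0.13 to -2.28 with a median of -1.25. Without *Zfpm1* the median of the remaining 9 pairs was -0.32, and with 1 value a gene the median was -0.32 for this group, -0.34 for Wnt genes and -0.42 for pluripotency genes. The WT ES heights of *Zfpm1* ran from 1.76 to 10.6 and its DKO ES heights from 0.843 to 2.76. The 4 pairs of *Zfpm2*, the related cofactor gene on chromosome 15, were also higher in WT (-0.47 to -1.18), at heights of 0.710 to 1.14 in WT and 0.127 to 0.446 in DKO. *Gata6* had 3 pairs with 0.53 at 271 bp from its start, -0.23 and -0.18, *Tal1* had -0.32 and *Trps1* 0.22. Of the 16 genes nearest to at least 6 pairs, 2 had every pair higher in WT ES, *Zfpm1* and the cell polarity gene *Pard3* (6 pairs, -0.31 to -0.80), and both lie on chromosome 8. None of the 16 had every pair higher in DKO ES. The limit of 6 pairs, and with it *Pard3*, was chosen after the values were seen.

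Genes of the Wnt pathway had a median shift of -0.41 over 14 pairs of 13 genes out of 35 listed, and 5 pairs were higher in DKO. The Wnt repressor gene *Tcf7l1* was 2-fold higher in WT ES (1.91 in WT and 0.0555 in DKO, -1.96), as was the receptor gene *Fzd3* (3.92 and 0.981, -1.14). *Sp5*, a Wnt target gene, followed with 2.54 and 0.684 (-0.97). These were a promoter pair with 14 CpGs at *Fzd3*, a promoter pair with 32 CpGs at *Sp5* and an intronic pair with 3 CpGs at *Tcf7l1*, and each held a motif.

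Pluripotency genes had 8 pairs at 5 of 32 listed genes, with a median of -0.25. The orphan receptor gene *Esrrb* had -0.12 and -0.72 in an intron, *Tbx3* -0.78, *Tdgf1* -0.54, *Stat3* -0.38 in an intron and 0.62 at its start, and *Trim28* 0.96 and 0.68. *Pou5f1*, *Nanog* and *Sox2* had no pair. Only *Stag3* of 38 listed germline genes with methylated promoters had a pair, with 4.79 in WT ES and 2.64 in DKO ES (-0.24). *Dnmt3a* and *Dnmt3b* had no pair, so the deleted genes could not be looked at through these heights.

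Of 22 genes of DNA methylation and its removal, 7 had 9 pairs, with a median of 0.22. *Mbd4*, which encodes a glycosylase that repairs deaminated methylcytosine, was 2-fold higher in DKO ES, with 3.33 in WT and 5.42 in DKO (1.16), and *Gadd45b* had a pair at 1.11 and another at -0.05. *Mbd3* (-0.73) and an intron of *Tet1* (-0.67) went towards WT. *Uhrf1*, a cofactor of maintenance methylation, had -0.25 and 0.33 at its promoter. *Tet3* had 0.22 and *Mbd1* 0.28.

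Imprinted genes gave 29 pairs at 11 of 47 listed, with a median of -0.08 and 13 pairs higher in DKO. *Ddc* alone gave 11 of the 29, with a median of -0.17. With 1 value a gene the median of the group was -0.16. *Rasgrf1*, the gene of an exchange factor for Ras, was 2-fold higher in WT ES, with 8.48 and 2.56 (-1.04), and *Trappc9* had 3 pairs at -1.23, -0.81 and -1.42. *Ddc*, the gene of aromatic amino acid decarboxylase, held both directions on chromosome 11. An intronic pair had 4.46 in WT and 0.582 in DKO (-1.81), and a pair beyond its end, 238 bp from the start of the neighbouring gene *Fignl1*, had 1.72 and 3.53 (1.37). *Inpp5f* had 1.35 at its start, and *Airn* had 1.04 in an intron.

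Cytosolic ribosomal protein genes, which are highly expressed from CpG-island promoters, had 40 pairs at 33 genes, with a median of 0.10 and 24 pairs (60.0%) higher in DKO. Promoter pairs, of which 68.3% were higher in DKO over all genes, made up 87.5% of the 40. The ends were *Rpl22* at 0.92 and *Rpl4* at -1.34, and *Rpl4* had 3 pairs within 449 bp at 0.85, -0.45 and -1.34. *Rpl35a* had a pair at -1.21. Clustered histone genes had 8 pairs, several of them shared by neighbouring genes, with a median of 0.10, and their ends were *Hist1h1c* at 0.75, a pair shared by *Hist1h2an*, *Hist1h2bp* and *Hist1h3i* at 0.58 and one shared by *Hist1h2ah* and *Hist1h2bk* at -0.57. Heat shock and stress genes had 11 pairs with a median of 0.20, of which 10 were higher in DKO. The largest were *Hsp90aa1* (0.81 and 0.78), *Hspd1* and *Hspe1*, which share a pair (0.73), and *Hsph1* (0.69). These chaperone pairs lay within 193 bp of a start in windows of 38 to 69 CpGs, for which the median shift of all pairs was also positive. None of the heat shock pairs was 2-fold different.

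Endoderm genes had 11 pairs at 5 of 22 listed, with a median of -0.02 and a range of -1.99 at *Col4a1* to 0.85 at *Cubn*. Of the 12 genes named in the study for its binding and reporter work, 5 had a pair. *Lgmn*, a lysosomal protease gene, had an intronic pair with a low ES height in both genotypes, 0.244 in WT and 0.543 in DKO (0.78). *Thbs4*, a thrombospondin gene, had 1.08 in WT and 0.148 in DKO (-1.08). *Myocd*, a coactivator of smooth and heart muscle genes, had 2 intronic pairs 1346 bp apart, with 1.19 and 0.900 at the one (0.13) and 1.12 and 2.15 at the other (1.18). *Spon1* had 0.597 and 0.729 (0.52) and *2610039C10Rik* 4.005 and 2.25 (-0.21). At *Lgmn*, *Thbs4*, *Myocd* and *Spon1* the WT ES heights were all below the WT median of 2.20.

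The rule for pairs had a limit at 100 bp, and the shift depended on the distance between the peaks. The 2151 pairs at most 10 bp apart had a median shift of -0.08, the 330 pairs 81 to 100 bp apart had 0.22, and the 224 pairs 101 to 120 bp apart, outside the rule, had 0.26. Repeat-masked windows also stood lower, with -0.21 over the 1122 pairs with over 25% masked bases against 0.03 over the 3868 pairs without a masked base, and 76.3% of the former held a motif against 46.1% of the latter. The part of the distance and of the repeats in the shifts was not tested.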

How the data were processed

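Gata4 ChIP-seq libraries of WT and DKO Flk1(+) cells with Dex and of WT and DKO ES cells without Dex were used, 1 library for each of 4 conditions. Peak calls on either Flk1(+) library were made by the authors with the DNAnexus tools, with the ES cells of that genotype as background. The submitters' processing notes name CASAVA 1.8.1, cutadapt and mm9, and the aligner is not given in the sources used here. The deposited signal of a peak is its height in the Flk1(+) profile and in the ES profile, and whether the authors scaled it for depth is not stated. The deposited ratio of these heights takes an ES height below 1 as 1 and served as a filter in an alternative, as did the deposited rank, a score of the authors. Lists were assigned to genotypes by the number of peaks that the study states, since no column names a library.

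The 14050 deposited windows of 501 bp, 2 for each pair, all equalled mm9 around the peak positions, and 0 did not. Pairs, scaling, classes, a pseudocount of 0.25 and intervals are as given above. Genes are those the lists name within 5 kb of a peak, and positions were annotated with GENCODE vM1. The steps were checked on simulated data. The genes named are the 12 largest shifts in each direction among pairs with a scaled height of at least 1 in either library, 1 pair a gene, the members of fixed gene lists, the 6 pairs high in both libraries, the 6 with the highest WT height on a chromosome over 0.3 from all pairs, and the genes of the study. Each was chosen among pairs with a gene named by the lists. The pairs, lists and rules were chosen with earlier results of these data known, and the comparison by motif count came later, with the data already seen. Alternatives varied the pseudocount, low heights, scaling, distance, score, enrichment, CpG class and pairing. Python 3.11.15, NumPy 2.4.6, pandas 2.3.3, SciPy 1.17.1 and Matplotlib 3.10.9 were used.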

Additional observations from a re-analysis of the deposited data

How the results depend on the processing

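No paired analysis was possible because each condition has 1 library. Shifts here are the median of a class less that of all pairs, as reported -0.29 on chromosome 8, 0.31 on chromosome 11, 0.27 at promoters, -0.29 at 0 to 4 CpGs and 0.30 at 40 or more. The alternatives run over pairs kept these directions, except that promoters taken relative to their CpG class had 0.013 with an interval of -0.0055 to 0.036, which leaves no direction. A comparison of all peaks without pairing put promoters at -0.12 and 40 or more CpGs at -0.082, both below 0. Peaks away from promoters had -0.098 there, so promoters and other peaks hardly differed. Without pairing, chromosome 8 had -0.17, chromosome 11 had 0.065 and 0 to 4 CpGs had -0.16. In the same order of classes, a pseudocount of 1 gave -0.18, 0.21, 0.18, -0.17 and 0.20, with 19 pairs 2-fold higher in DKO and 88 in WT. From chromosome 11 onwards in that order, no pseudocount gave 0.38, 0.32, -0.38 and 0.35 with 593 and 983 pairs, heights of at least 1 in both gave 0.18, 0.14, -0.24 and 0.16 with 99 and 190, pairs formed from the upper 50% of each list by rank gave 0.41, 0.38, -0.24 and 0.42 with 181 and 278, and an enrichment of at least 4 gave 0.35, 0.37, -0.20 and 0.40 with 310 higher in WT. Relative to CpG class chromosome 11 had 0.25, and relative to CpG class and motif count chromosome 11 had 0.23.

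The counts of 2-fold pairs depended on the scaling. Scaling over non-promoter pairs moved the median of all pairs to 0.14 and gave 523 pairs higher in DKO and 420 in WT, 55.5% towards DKO against 32.9% as reported. Scaling over all peaks of each list moved it to -0.41 and gave 64 and 1350, 4.53% towards DKO. The upper quartile gave 164 higher in DKO. A pseudocount of 1 left 17.8% towards DKO. Pairs within 50 or 250 bp, and all chromosomes but 8, kept each count within 1.5 times. The shift at 3 or more motifs, -0.54 as reported, ran from -0.71 to -0.31. With 1 library each and unknown depth of the ES libraries, a difference between libraries cannot be told apart from one between genotypes.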

Other observations

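Peaks on chromosome Y and on the mitochondrial genome occurred in the WT list and not in the DKO list, so they form no pair. The mitochondrial peak at position 15359 had an ES height of 269 and a Flk1(+) height of 816, above every paired height. The peak at position 2002170 of chromosome Y had 0.254 and 9.73.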
